A study of Mus musculus with 4 samples.

Results

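The integrated stress response and the unfolded protein response were followed through 41 genes in mouse bone marrow-derived macrophages, and 40 of them were measured. The members were taken from the deposited array table by their gene symbols: a probe set, the group of short probes that reads a transcript, was kept where the platform annotation gave it a single gene, and the brightest probe set stood for each gene. Pycr1, a proline synthesis enzyme gene, had no such probe set and was not analysed here. The 40 members had 97 probe sets out of 45101 on each array, and 18193 genes were measured in all. All 40 members lay at or above the floor of 52.9 intensity units on all 4 arrays, so no member passed through a single group, and 35 had a mean of at least 500 units.

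The 4 groups had 1 array each: macrophages of WT or DKO mice, both on a C57BL/6 background, either untreated or given 2 ng/ml LPS for 3 h. DKO cells carried a knockout of Hes1 and of Hey1, which encode transcriptional repressors downstream of Notch, and LPS is the bacterial lipopolysaccharide sensed by TLR4. All cells had been grown from bone marrow for 5 days with 10% serum and 10% L929 supernatant, a source of macrophage colony-stimulating factor. How the knockout was driven, and how many animals gave each sample, was not given in the sources used here. With 1 array per group there was no replicate check and no test, so every difference below compares single arrays and carries no error or p-value.

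As background, the integrated stress response starts when a stress kinase phosphorylates the translation factor eIF2α: general protein synthesis falls while the transcription factor ATF4 is made, and ATF4 switches on genes for amino acid uptake and synthesis. The unfolded protein response reacts to misfolded proteins in the endoplasmic reticulum (ER) through 3 sensors: PERK, itself an eIF2α kinase, IRE1, which splices Xbp1 mRNA, and ATF6. XBP1 and ATF6 raise ER chaperones and the machinery that degrades misfolded ER proteins. Macrophages load the ER with secreted proteins after LPS, and Toll-like receptors are known to engage IRE1 while restraining the PERK and CHOP side.

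Motif matches in the members' promoters differed between the amino-acid and the chaperone arms, though most promoters of the amino-acid arm held none. Of the promoters 7 are shown because they hold the matches of the genes on which the results turn. RefSeq promoters (build GRCm38.p6), 250 bases before to 50 after a transcript start, were found for 36 of the 40 members. Slc7a5, Eif4ebp1, Ppp1r15b and Manf had none. Both strands were searched for the C/EBP-ATF response element that ATF4 binds (CARE, TGATGNAAN), the ER stress response element (ERSE, CCAAT and CCACG with 9 bases between them), its shorter form ERSE-II (ATTGG and CCACG with 1 base between them) and the XBP1 element (UPRE, TGACGTG). Each line gives the 250 bases upstream of the start, 5′ to 3′ on the gene's strand, with motif matches in capitals.
Asns (chr6:7693210-7693459, minus strand): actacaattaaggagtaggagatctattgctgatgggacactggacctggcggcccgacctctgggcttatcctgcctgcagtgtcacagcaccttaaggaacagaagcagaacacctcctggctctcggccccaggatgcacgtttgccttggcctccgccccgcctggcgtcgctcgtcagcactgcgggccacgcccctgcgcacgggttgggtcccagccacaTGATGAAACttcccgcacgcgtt
Slc7a11 (chr3:50443614-50443863, minus strand): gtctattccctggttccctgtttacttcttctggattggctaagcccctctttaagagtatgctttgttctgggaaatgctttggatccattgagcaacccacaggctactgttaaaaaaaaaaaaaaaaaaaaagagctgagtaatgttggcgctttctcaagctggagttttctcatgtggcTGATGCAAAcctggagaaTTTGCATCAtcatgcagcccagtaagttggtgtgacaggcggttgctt
Chac1 (chr2:119350992-119351241, plus strand): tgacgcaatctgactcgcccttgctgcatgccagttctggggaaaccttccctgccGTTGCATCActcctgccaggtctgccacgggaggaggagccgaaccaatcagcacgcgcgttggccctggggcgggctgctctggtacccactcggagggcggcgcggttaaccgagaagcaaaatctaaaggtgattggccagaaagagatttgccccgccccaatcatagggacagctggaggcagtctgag
Nupr1 (chr7:126625471-126625720, minus strand): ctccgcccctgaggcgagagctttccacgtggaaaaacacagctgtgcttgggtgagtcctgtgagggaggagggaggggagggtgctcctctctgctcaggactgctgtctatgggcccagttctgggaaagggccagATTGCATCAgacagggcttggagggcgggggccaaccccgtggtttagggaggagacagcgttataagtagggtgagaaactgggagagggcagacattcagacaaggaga
Herpud1 (chr8:94386179-94386428, plus strand): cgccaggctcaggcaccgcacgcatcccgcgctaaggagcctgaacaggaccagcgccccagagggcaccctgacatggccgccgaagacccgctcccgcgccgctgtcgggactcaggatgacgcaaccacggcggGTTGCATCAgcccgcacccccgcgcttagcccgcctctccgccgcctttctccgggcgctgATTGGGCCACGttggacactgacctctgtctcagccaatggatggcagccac
Hspa5 (chr2:34771840-34772089, plus strand): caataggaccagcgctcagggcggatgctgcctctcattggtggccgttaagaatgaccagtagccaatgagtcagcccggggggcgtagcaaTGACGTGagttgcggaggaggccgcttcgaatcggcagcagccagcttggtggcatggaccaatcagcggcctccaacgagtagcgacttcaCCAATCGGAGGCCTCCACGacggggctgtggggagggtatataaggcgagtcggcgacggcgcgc
Hsp90b1 (chr10:86705445-86705694, minus strand): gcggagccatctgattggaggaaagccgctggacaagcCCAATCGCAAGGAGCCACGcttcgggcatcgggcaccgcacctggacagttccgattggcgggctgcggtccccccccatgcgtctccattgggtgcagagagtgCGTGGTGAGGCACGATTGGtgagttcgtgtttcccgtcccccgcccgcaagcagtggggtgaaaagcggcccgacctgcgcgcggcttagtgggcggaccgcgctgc

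The CARE letters were present in 2 of 9 promoters of the amino-acid arm, those of Asns and Slc7a11, and in 4 of 9 among ATF4 and its regulatory targets, those of Chac1, Nupr1, Trib3 and Vldlr. None of the 10 chaperone promoters held them, and Herpud1 was the only degradation gene with them. Of all 27025 genes with a promoter, 4.50% held a CARE match. The ERSE letters showed the opposite layout: 6 of 10 chaperone promoters held them (Calr, Creld2, Dnajc3, Hsp90b1, Hspa5 and Pdia6), as did that of Syvn1, against 0.137% of all genes and none in the amino-acid arm. ERSE-II was in Herpud1 and Dnajb11 (0.0444% of all genes) and the UPRE in Hspa5 (2.22% of all genes). No matches in the members overlapped each other. Slc7a11 held 2 CARE matches in opposite orientations, at bases -66 to -58 and -48 to -40, Hsp90b1 held 2 ERSE matches, and Herpud1 held a match of both systems. The match of Trib3 lay after the start, at bases 14 to 22. A match describes letters in a window and not a bound site, and no match says only that these letters are not in that window.

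**Figure D1:**
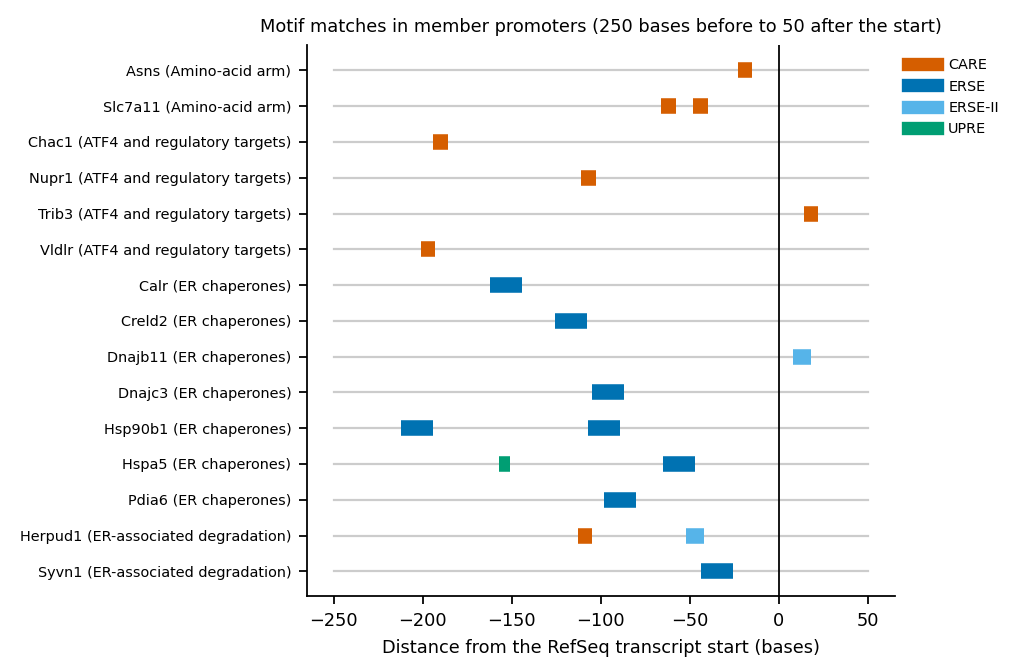
Positions of motif matches in the promoters of the 15 members that held any, with distance from the RefSeq transcript start in bases on the x axis and a row per gene; grey lines span the searched 250 bases before to 50 after the start, and colours name the motif. CARE matches lie in rows of the amino-acid and ATF4 groups and in Herpud1, and ERSE matches in rows of the chaperones and Syvn1.

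Facts of the arrays that touch these values are as follows. Median intensities ran from 50.8 to 59.1 units, highest on the untreated WT array. Among 9369 bright probe sets, those reading 500 units or more everywhere, that array exceeded the mean of the others by a median of only 0.015 on the log2 scale. The excess was 0.24 among 19618 dim ones that never reached the floor and 0.23 among the 16050 in between. Against untreated WT cells, dim and middle probe sets thus tend to read lower in untreated DKO cells than bright ones do. The brightest probe sets of Trib3, Chac1, Slc7a11, Slc7a5, Sesn2 and Vldlr lie in the middle class. That of Nupr1 lies there too, just under the bright class at 499.5 units in untreated DKO cells. Hes1 and Hey1 were dim, and both read lower on each DKO array than on each WT array, with Hes1 at 45.4 and 26.7 units in WT and 2.14 and 5.80 in DKO cells, all under the floor. All 10 macrophage markers, Csf1r and Cd68 among them, were above the floor on all arrays. Their summed levels were 87942 units without LPS and 130310 with it in WT cells and 113070 and 143725 in DKO cells. Without LPS 9 of 10 were higher in DKO cells by a log2 difference of more than 0.20, as were 18.6% of all genes. C1qa read 3237 units in untreated WT and 8804 in untreated DKO cells. With LPS 6 were higher and 4 lower in WT cells, and Mertk was the lowest, at 1425 units without LPS and 440 with it. No lymphoid, dendritic or fibroblast marker of 5, 5 and 6 with a probe set passed the floor on any array.

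Without LPS, the ATF4 side of the module read lower in DKO than in WT cells, while most chaperones were nearer to their WT level by their brightest probe sets. All 10 measured genes of the amino-acid arm were lower in DKO cells, with a median log2 difference of -0.46 (1.38-fold lower), and 9 of 10 among ATF4 and its regulatory targets were lower, with a median of -0.31. The 11 ER chaperones had a median of -0.08, with 6 lower and 5 higher. The median of all 11379 genes above the floor was -0.02, of which 53.0% were lower. Among 6610 genes as bright as most members, 500 units or more, the median was 0.02 and 46.1% were lower.

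The largest differences were in Trib3 and Chac1. Trib3, a pseudokinase that ATF4 and CHOP induce and that feeds back on them, read 612 units in WT cells without LPS and 524 with it, and 164 and 202 units in DKO cells. Both DKO arrays were under both WT arrays, and Trib3 was 3.73-fold lower without LPS, rank 5 from the lowest of all genes. Chac1, whose enzyme degrades glutathione and which ATF4 induces, read 204 and 486 units in WT cells and 64.96 and 401 in DKO cells. Here only the untreated DKO array stood low, near the floor, and the gene was 3.14-fold lower without LPS, rank 11. These were the 2 of 40 members past 2-fold lower in this comparison, and 0 were past 2-fold higher. Among all genes 0.984% were 2-fold lower and 0.466% higher. Past 1.5-fold, 7 members were lower, where 4.97% of all genes were.

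The amino-acid arm was lower by less than 2-fold, in steps of different size. A yardstick for small differences is the gap between the differences read by a gene's brightest and second brightest probe sets, which had a median of 0.20 over 4709 genes in this comparison. It describes agreement within arrays, not variation between cultures. By that measure 9 of 10 genes of the amino-acid arm were lower by more than the gap, 8 of 10 ATF4 regulators and 2 of 11 chaperones, against 25.0% of all genes and 16.2% of those with 500 units or more. Asns, which makes asparagine and is a classic ATF4 target, read 2508 units in untreated WT cells and 1766 in DKO cells, 1.42-fold lower. Aldh18a1, the entry enzyme of proline synthesis, was 1.53-fold lower and Slc7a5, the large neutral amino acid transporter, 1.75-fold lower. The mitochondrial one-carbon enzyme genes Shmt2 and Mthfd2 were 1.37-fold and 1.38-fold lower. Slc7a11, the cystine importer of the xCT system, read 133 units in WT and 69.8 in DKO cells and was 1.90-fold lower, the lowest of the arm, whereas its partner chain Slc3a2 was 1.22-fold lower. In serine synthesis, Psat1 and Psph were both 1.28-fold lower, and Phgdh, the first enzyme, read 2932 and 2892 units, a log2 difference of -0.02.

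Among the regulators, Atf4 mRNA itself read 4787 units in untreated WT and 3904 in untreated DKO cells, 1.23-fold lower. Ddit3, which encodes the death-linked factor CHOP, read 2960 and 1831, 1.62-fold lower, and the leucine sensor gene Sesn2 was 1.47-fold lower. Atf5, another eIF2α-regulated factor, and Eif4ebp1, a brake on cap-dependent translation, were 1.18-fold and 1.26-fold lower. Cebpg, a dimer partner of ATF4, was level at 1529 and 1514 units by its brightest probe set. Its second, at 1362 and 1094 units, gave a log2 difference of -0.32, and its dimmest gave 0.27. Vldlr, a lipoprotein receptor gene, read 54.3 to 57.9 units on the 4 arrays, at the floor, so its differences carry no information.

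Of the 5 genes for the sensors, Xbp1 and the eIF2α phosphatase, 3 were lower by more than the gap, by small amounts. Eif2ak3, which encodes PERK, read 1544 units in untreated WT and 1562 in untreated DKO cells, and the phosphatase subunit genes Ppp1r15a and Ppp1r15b were 1.16-fold and 1.17-fold lower. Ern1, which encodes IRE1, was 1.20-fold lower, and its second probe set gave -0.50. Xbp1 read 10105 units in WT and 11400.5 in DKO cells without LPS, 1.13-fold higher, and 10295 and 10484 with LPS. The arrays do not separate spliced from unspliced Xbp1 here, so these values say nothing of IRE1 activity.

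Among the chaperones, Hspa5 (BiP, the master ER chaperone) read 15721 units in untreated WT and 17623 in untreated DKO cells, 1.12-fold higher. The lectin chaperone gene Calr and the disulfide isomerase genes Pdia4 and Pdia6 were higher by 1.09-fold, 1.16-fold and 1.08-fold. Within the group Manf, a secreted ER stress protein, and Creld2, a related target, stood apart at log2 differences of -0.58 and -0.40. The J-domain co-chaperone genes Dnajb9, Dnajb11 and Dnajc3, their complex partner Sdf2l1 and the ER HSP90 gene Hsp90b1 ran from -0.20 to 0.08. Of the degradation genes, Herpud1 and the ubiquitin ligase gene Syvn1 were 1.59-fold and 1.40-fold lower, and Edem1, which picks out misfolded glycoproteins, and Sel1l, the partner of the Syvn1 ligase, were within the gap at -0.09 and 0.05.

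**Figure D2:**
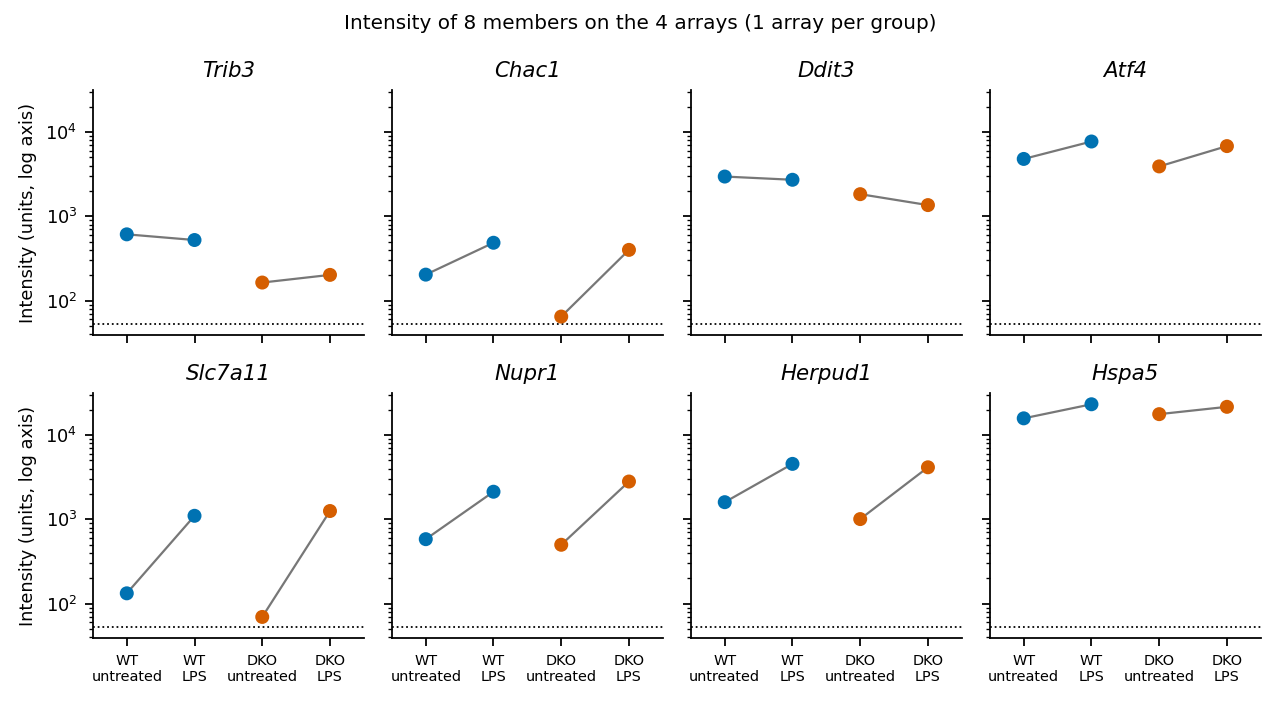
Intensity in units on a log axis for 8 members on the 4 arrays, with a point per array (blue WT, orange DKO), a grey line joining the arrays of a genotype and a dotted line at the floor of 52.9 units. Trib3 lies lower on both DKO arrays, Chac1 only on the untreated one, and Slc7a11, Nupr1 and Herpud1 lie higher with LPS in both genotypes.

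With LPS, the comparison of DKO and WT cells uses 2 other arrays, and the amino-acid arm again read lower. Its median was -0.38 (1.30-fold lower) with 9 of 10 genes lower, against -0.12 for the chaperones, with 9 of 11 lower, and -0.04 for all 11236 genes above the floor, of which 56.6% were lower (57.4% of those with 500 units or more). By more than the probe set gap of this comparison, 0.18, 7 of 10 genes of the amino-acid arm and 5 of 11 chaperones were lower, against 27.7% of all genes and 22.2% of those with 500 units or more. Shmt2 was the lowest of the arm at 1.46-fold lower, with Asns at 1.38-fold, Slc3a2 and Aldh18a1 at 1.35-fold each and Mthfd2 at 1.32-fold. Slc7a11 read 1101 units in WT and 1255 in DKO cells by its brightest probe set, 1.14-fold higher, and 1226 and 1088 by its other one, 1.13-fold lower, so its probe sets gave no common direction.

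Trib3 was the 1 member past 2-fold, at 2.59-fold lower and rank 28 from the lowest, where 0.934% of all genes were 2-fold lower and 0.845% higher. Past 1.5-fold, 3 members were lower, as were 5.03% of all genes. Ddit3 read 2711 units in WT and 1359 in DKO cells with LPS, 1.99-fold lower and just short of the mark. Ddit3 was therefore lower on both DKO arrays than on both WT arrays, as was Trib3. Nupr1, a stress-induced transcriptional cofactor gene, was 1.32-fold higher in DKO cells with LPS after reading 1.17-fold lower without it. Chac1, far lower without LPS, was 1.21-fold lower with it, and Herpud1 1.10-fold lower. Sesn2 and Eif4ebp1 stayed 1.39-fold and 1.23-fold lower. Among the chaperones Pdia4 was the lowest, at 1401 units in WT and 888 in DKO cells (1.58-fold lower), followed by Manf at 1.24-fold lower, and Hspa5 was 1.07-fold lower. The kinase, phosphatase and Xbp1 genes were within the gap by their brightest probe sets, with Ppp1r15a at -0.06 and Xbp1 at 0.03. Ern1 was 1.21-fold lower by its brightest probe set and gave 0.17 by its second.

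The genotype comparisons without and with LPS share no array, so their values can be set side by side. Whether the arrays of a genotype came from the same animals or cultures was not given, so the comparisons may not be independent. In the amino-acid arm 9 of 10 genes were lower in both, and 7 of 10 among ATF4 and its regulatory targets, against 5 of 11 chaperones and 33.4% of 10787 genes above the floor in both comparisons. Across the 40 members the 2 sets of differences correlated with Pearson's r of 0.55, against 0.30 across all those genes, where genes of an array are not independent and share its scaling. The difference between the medians of the amino-acid arm and the chaperone arm, which no constant scaling of an array can move, was -0.38 without LPS and -0.26 with it. After the arrays' medians were equalised, a scaling that shifts the median of all genes from -0.02 to 0.19 in the untreated comparison, the amino-acid arm stood at -0.25 with 9 of 10 genes lower and the chaperones turned to 0.13. With LPS the same scaling left them at -0.38 and -0.12.

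**Figure D3:**
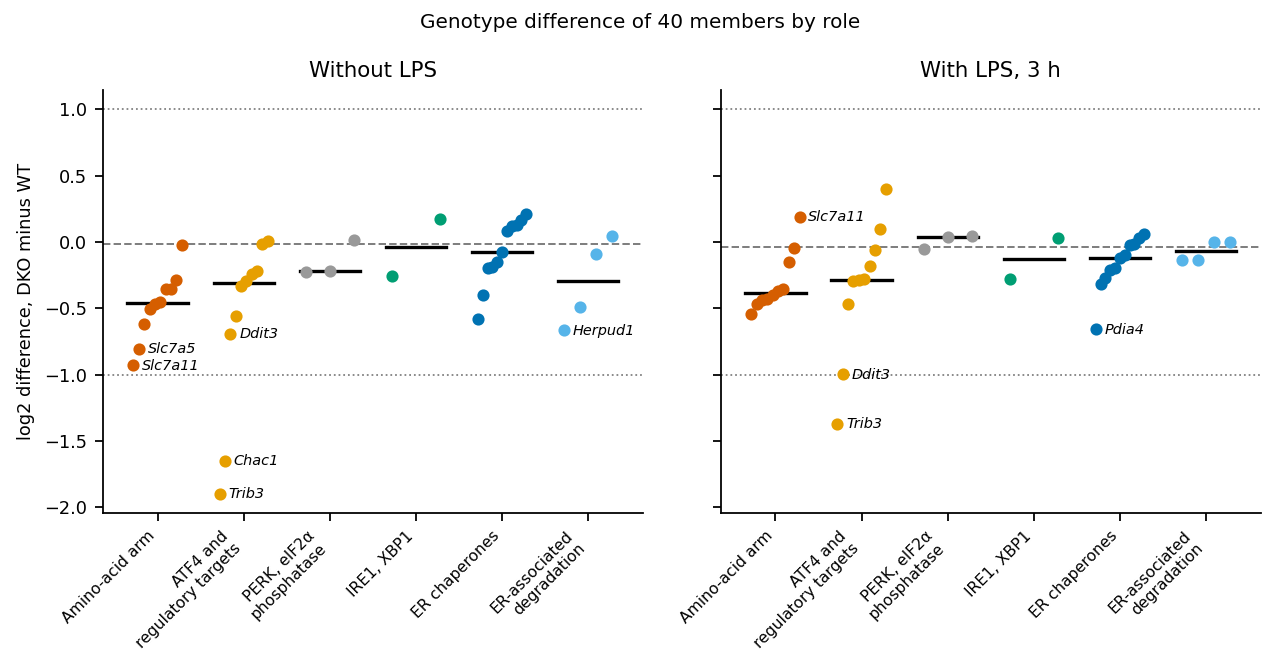
log2 difference of DKO minus WT for the 40 members by role (x axis), without LPS at left and with LPS at right, with a point per gene, a black bar at the group's median, a dashed line at the median of all genes and dotted lines at 2-fold. The amino-acid arm centres on -0.46 and -0.38, the chaperones on -0.08 and -0.12.

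Other probe sets of the same genes bear on these small differences, and 25 members had a second one above the floor on all arrays. For Trib3 the second probe set gave -1.89 without LPS and -1.37 with it, beside -1.90 and -1.37 from the first. In the amino-acid arm all 6 second probe sets were lower in DKO cells in both comparisons, with medians of -0.31 and -0.32. Second probe sets of 5 chaperones had medians of -0.25 without LPS and -0.11 with it, beside 0.12 and -0.02 from the first probe sets of the same genes. By these medians the arms were close to each other without LPS and farther apart with it. The 5 chaperone values were spread, however, from -0.35 for Pdia6 to 0.12 for Calr without LPS. The Pdia6 probe set was dim, at 73.1 to 93.5 units, near the floor and in the middle class. That of Hspa5 gave -0.33 without LPS, opposite to the first, and that of Atf4 gave -0.91 without LPS and -0.01 with it. For Ddit3 the second probe set gave -0.29 and -0.59, in the direction of the first and smaller. Among the degradation genes the second probe set of Syvn1 gave -0.11 without LPS and that of Sel1l -0.31. Second probe sets of Sesn2 and Herpud1 gave 0.34 each with LPS, opposite to the first.

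**Figure D4:**
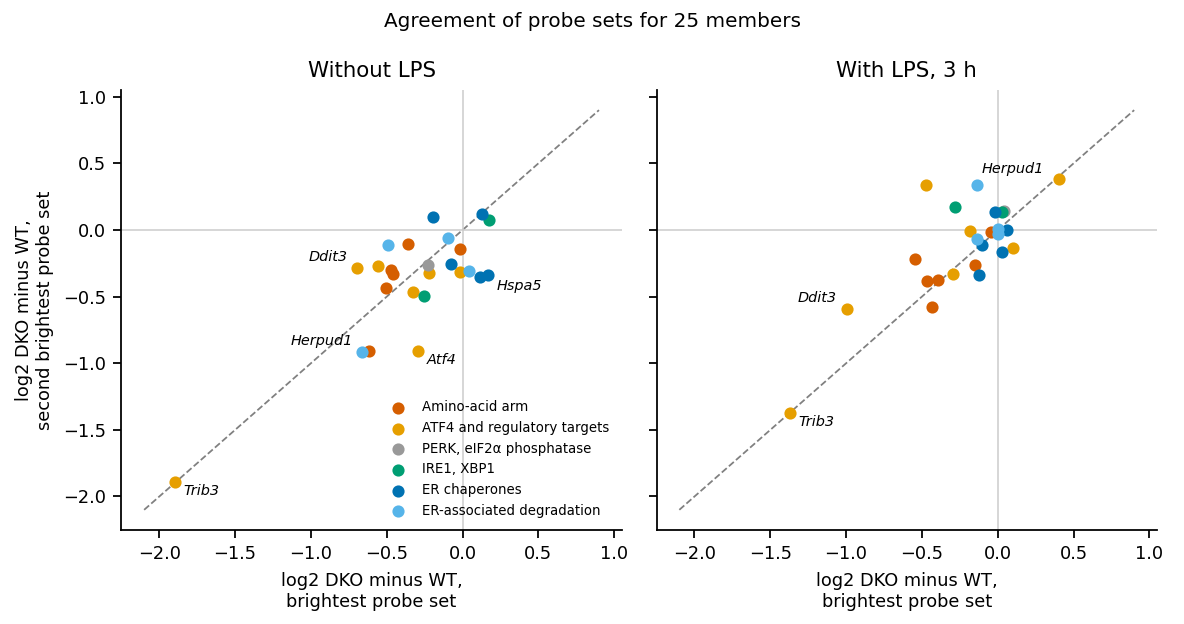
log2 difference of DKO minus WT read by the brightest (x axis) and second brightest (y axis) probe set of 25 members, without LPS at left and with LPS at right, with a dashed line of equality and colours by role. Trib3 lies on the line in both panels, Atf4 lies under it without LPS, and the amino-acid arm stays under 0 on both axes in both panels.

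With LPS a few members were far higher in both genotypes, many others differed by small amounts, and no member was 2-fold lower in either genotype. In WT cells 4 of 40 members were 2-fold higher: Slc7a11, Nupr1, Herpud1 and Chac1. Among all 11489 genes above the floor 3.36% were 2-fold higher and 3.41% lower (3.92% and 1.86% of those with 500 units or more). In DKO cells these 4 were again 2-fold higher, together with Ppp1r15a. Of 11240 genes 4.66% were higher and 4.77% lower there (5.12% and 3.42% of those with 500 units or more). By more than the probe set gap of these comparisons, 0.26 in WT and 0.20 in DKO cells, 15 of 40 members were higher and 6 lower in WT cells, against 18.1% and 32.9% of all genes, and 18 were higher and 7 lower in DKO cells, against 22.6% and 40.7%. Past 1.5-fold, 7 members were higher in WT and 8 in DKO cells, where 6.93% and 8.94% of all genes were. The members' median was 0.09 in WT and 0.12 in DKO cells, against -0.09 and -0.10 for all genes. For genes with 500 units or more it was -0.02 and -0.08. The promoters of Slc7a11, Nupr1, Herpud1 and Chac1 each held a CARE match, as did 3 of the 32 other members with a promoter. Ppp1r15a, 2-fold higher in DKO cells only, held none. Of 305 genes with a promoter that were 2-fold higher with LPS in WT cells, 4.92% held a match. This compares with 2.77% of all 9357 genes above the floor with a promoter. In DKO cells it was 5.02% of 418 genes against 2.77% of 9185. The part of these letters in the LPS effect was not tested.

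Slc7a11 read 133 units in untreated WT cells and 1101 with LPS, 8.29-fold higher, and 69.8 and 1255 units in DKO cells, 18.0-fold higher. Its other probe set read 102 and 1226 units in WT cells and gave a log2 difference of 3.58. Nupr1 read 582 and 2123 units in WT cells (3.65-fold higher) and 499.5 and 2804 in DKO cells (5.61-fold higher), and its other probe set gave 1.76 and 2.46 on the log2 scale. Herpud1, whose protein docks the degradation complex at the ER membrane, went from 1597 to 4539 units in WT cells (2.84-fold higher) and from 1007 to 4135 in DKO cells (4.11-fold higher). Chac1 was 2.39-fold higher in WT and 6.17-fold higher in DKO cells. For each of these 4 genes both arrays with LPS lay above both arrays without it.

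Around the 2-fold mark, Ppp1r15a, which encodes the stress-induced GADD34 subunit that reverses eIF2α phosphorylation, read 782 and 1475 units in WT cells without and with LPS (1.89-fold higher) and 672 and 1419 in DKO cells (2.11-fold higher). Mthfd2 was 1.87-fold and 1.97-fold higher. Atf4, at 7700.4 units in WT and 6794 in DKO cells with LPS, was 1.61-fold and 1.74-fold higher by its brightest probe set, while its second gave -0.27 in WT and 0.63 in DKO cells. For Ddit3, a usual companion of ATF4 output, the probe sets disagreed: the differences were -0.13 and -0.43 by the brightest and 0.59 and 0.28 by the dimmer one. Trib3 gave -0.22 in WT and 0.30 in DKO cells, and -0.02 and 0.50 by its second probe set, so it exceeded the gap on the higher side in DKO cells.

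The rest of the amino-acid arm had no common direction under LPS. Slc3a2 was 1.46-fold higher in WT and 1.32-fold higher in DKO cells and Asns 1.24-fold and 1.28-fold higher, whereas Psat1 was 1.45-fold and 1.25-fold lower by its brightest probe set and gave 0.04 and -0.12 on the log2 scale by its second. In all, 5 of 10 genes of the arm were higher in both genotypes and 4 lower in both, against 27.7% and 48.0% of all genes. The arm's median was 0.02 in WT cells and 0.21 in DKO cells, against 0.22 and 0.13 for the chaperones, a difference of -0.20 in WT cells, which turned to 0.0088 with the median over probe sets, and of 0.08 in DKO cells. Of the chaperones 6 of 11 were higher in both genotypes, with Hspa5 at 15721 and 23076 units in WT cells (1.47-fold higher) and 17623 and 21516 in DKO cells (1.22-fold higher), and Pdia6 at 1.32-fold and 1.20-fold. Other probe sets of these 2 genes did not bear out the WT values. Those of Hspa5 gave 0.067 and 0.021 in WT and 0.29 and 0.31 in DKO cells. That of Pdia6, dim at 93.5 and 75.5 units in WT cells, gave -0.31 in WT and 0.18 in DKO cells. For Calr the other probe sets gave 0.26 and 0.34 in WT cells, beside 0.27 from the brightest. In DKO cells they gave 0.09 and 0.05, beside 0.17. Over the 5 chaperones with a second probe set, its median was -0.015 in WT cells beside 0.27 from the first. Hsp90b1, the second large chaperone whose promoter is shown above, read 14883 and 11734 units in WT cells, 1.27-fold lower, and was 1.06-fold lower in DKO cells. Eif2ak3 and Ern1, the sensor genes, were lower in both genotypes, at -0.47 and -0.44 and at -0.45 and -0.47, and Xbp1 gave 0.03 and -0.12. The second probe set of Ern1 gave -0.86 and -0.19 and that of Xbp1 -0.23 and -0.16.

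**Figure D5:**
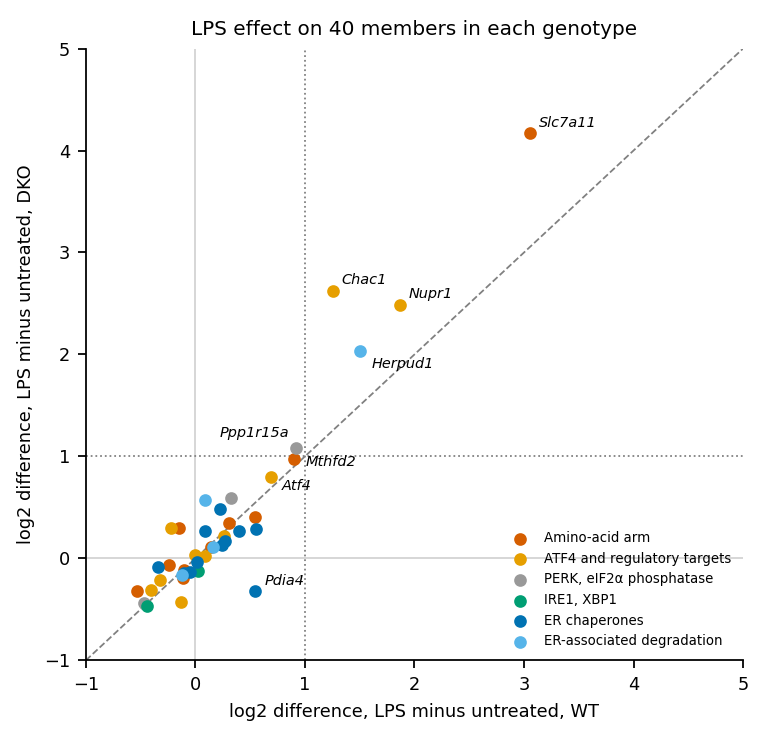
log2 difference of LPS minus untreated in WT cells (x axis) and DKO cells (y axis) for the 40 members, with a point per gene coloured by role, a dashed line of equality and dotted lines at 2-fold. Slc7a11, Chac1, Nupr1 and Herpud1 lie past 2-fold on both axes and above the line of equality, and Pdia4 is higher with LPS in WT cells only.

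The LPS effect was larger in DKO than in WT cells for those 4 genes. The difference of the log2 effects was 1.37 for Chac1, 1.12 for Slc7a11, 0.62 for Nupr1 and 0.53 for Herpud1. Of the 40 members 2, Chac1 and Slc7a11, passed 2-fold higher and 0 lower, against 1.31% and 0.721% of 9981 genes above the floor on all arrays, and the members' median was 0.03 against -0.05 for all. The second probe set of Herpud1 gave 1.26, past 2-fold, and that of Nupr1 gave 0.70. For each of these 4 genes the untreated DKO array read lowest of the 4 arrays, for Nupr1 at 499.5 units against 582 in untreated WT cells. These 4-array differences include the untreated WT array, whose dim and middle probe sets read high as given above, and its part in them was not tested. In DKO against WT cells with LPS, which leaves that array out, Chac1 stood at -0.28, Slc7a11 at 0.19, Nupr1 at 0.40 and Herpud1 at -0.13, or 0.34 by its second probe set. At the other end Pdia4, a disulfide isomerase gene, had a difference of -0.87, the lowest of the members and the 1 member past 1.5-fold in that direction, as were 4.41% of all genes.

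Other genes of the pathway, from lists of genes that are no members, gave the setting. Of 19 measured cytosolic aminoacyl-tRNA synthetase genes, many of them ATF4 targets, none passed 2-fold in any comparison. Their medians were -0.17 without LPS and -0.25 with LPS in DKO against WT cells. Of the 19, 13 and 17 were lower, where 53.0% and 56.6% of all genes were. Yars was the lowest without LPS (-0.42) and Eprs with it (-0.50), while Vars was the highest without LPS (0.37). Of 19 other ATF4 targets none passed 2-fold between genotypes, and the medians of those above the floor were -0.14 and -0.01. Jdp2 (-0.90) and Slc7a1 (-0.62) were the lowest without LPS. With LPS 2 of 17 above the floor were 2-fold higher in WT cells, the AP-1 family gene Jdp2 (8.14-fold) and the autophagy receptor gene Sqstm1 (2.69-fold), where 3.36% of all genes were. In DKO cells 6 of 17 were, against 4.66% of all genes: Jdp2, Sqstm1, the arginine transporter gene Slc7a1 (2.19-fold), Cebpb (2.23-fold), Nfe2l2 (2.05-fold) and Ddit4 (2.05-fold). The last 4 were just under the mark in WT cells, at 1.66-fold, 1.83-fold, 1.93-fold and 1.71-fold higher. Second probe sets of Cebpb and Nfe2l2 were 3.42-fold and 3.07-fold higher in WT cells and 3.32-fold and 2.67-fold higher in DKO cells. That of Slc7a1 was 1.66-fold higher in WT and 2.27-fold higher in DKO cells. Of 9 genes for other eIF2α kinases, eIF2 and eIF2B, Eif2ak4, the amino acid sensing kinase GCN2, was 2-fold lower in 2 comparisons. It read 345 and 217 units in WT cells and 260 and 97.5 in DKO cells, 2.67-fold lower with LPS in DKO cells and 2.23-fold lower in DKO than in WT cells with LPS. Of 35 other ER folding and degradation genes above the floor, the medians between genotypes were 0.01 and -0.06, and Derl3 alone was 2-fold lower, with LPS (-1.01).

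Of the members Trib3, Chac1 and Hspa5 lie on chromosome 2, as do Eif2ak4, Cebpb and Nfe2l2 of the other pathway genes. Among the 50 measured genes on either side of Chac1, which include Tmem87a, read at 65.5 units in untreated WT and 1078 in untreated DKO cells, 6 of 100 were past 2-fold in DKO against WT cells without LPS and 6 with LPS, where 1.45% and 1.78% of all genes were. Around Trib3 it was 2 of 100 in each comparison. The part of chromosomal position in these differences was not tested. Of the progenitor and erythroid markers 3 of 6 with a probe set passed the floor on any array. Their summed level was 1093 and 784 units in WT and 607 and 428 in DKO cells, and Cd34 made most of that difference, with 876 and 552 in WT and 361 and 229 in DKO cells. Kit read 161 and 145 in WT and 155 and 96.9 in DKO cells, and Klf1, an erythroid factor gene, 22.6 and 53.6 in WT and 43.8 and 53.8 in DKO cells. Flt3, Gata1 and Hba-a1 stayed under the floor. Of 7 neutrophil markers S100a8 alone passed the floor, and their sums were 583 and 626 units in WT and 379 and 467 in DKO cells. In bulk RNA fewer cells of a kind and less RNA per cell cannot be told apart, and the part of these markers in the lower ATF4-side values was not tested.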

How the data were processed

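RNA of 4 macrophage samples was labelled with biotin and hybridised to arrays, per the labels' protocols, and the deposited table gives linear intensities, a single value for each probe set on an array. The authors' intensities, as their values show, share a mean of 500.0 units after trimming 2% at either end. The tool was not given in the sources used here.

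Of 45101 probe sets, 64 controls were left out, 34945 were annotated to a single gene, 932 to several and 9160 to none. Symbols of 34741 were updated through Entrez identifiers with RefSeq (GRCm38.p6). The probe set with the highest mean stood for a gene. The pooled median of all arrays, 52.9 units, served as a floor to which lower values were raised before taking log2. The 5 comparisons are log2 differences of 2 arrays, or of 2 such differences for genes above the floor on all arrays. Genes are called at 2-fold, with no test.

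The members and lists were chosen with earlier results of these data known. All members are accounted for, with levels for those past 2-fold and for Atf4, Ddit3, Xbp1 and Hspa5, and other pathway genes are named only where past 2-fold or among the 2 largest differences of their list. Tmem87a and the marker genes named with values lie outside that rule and were chosen after their values were seen. Alternatives were 3 other scalings, 3 other floors, 2 other probe set rules, wider arms and a threshold of 1.5-fold. The medians of each arm under other scalings were added after seeing the data. The calling of 2-fold differences was checked on simulated data. Python 3.11.15 (pandas 2.3.3, numpy 2.4.6) and, for cyclic loess, limma 3.58.1 in R 4.3.3 were used. The number of arrays limits the precision.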

Additional observations from a re-analysis of the deposited data

Results flagged for a closer look

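Pdia4, a disulfide isomerase gene of the ER, moved in opposite directions with LPS in the genotypes. It read 958 units without LPS and 1401 with it in WT cells, and 1110 and 888 in DKO cells, which gave log2 differences of 0.55 in WT and -0.32 in DKO cells. Both exceeded the median gap between probe sets of a gene in their comparison, 0.26 and 0.20. The difference between the genotypes was not tested, since there is 1 array per group, and the gene's other probe set was under the floor on all arrays.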

How the results depend on the processing

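The difference between the medians of the amino-acid and the chaperone arm in DKO against WT cells kept its sign under all 9 alternatives. It ran from -0.38 to -0.23 without LPS and from -0.26 to -0.16 with LPS. Outside these alternatives, second probe sets of 6 amino-acid genes and 5 chaperones had medians of -0.31 and -0.25 without LPS. With LPS they had -0.32 and -0.11. The chaperone medians include the dim second probe set of Pdia6. For LPS in WT cells the difference between the arms turned from -0.20 to 0.0088 when each gene took the median over its probe sets. The cause was not tested. At 1.5-fold, 7 members were higher with LPS in WT and 8 in DKO cells, 7 were lower in DKO against WT cells without LPS and 3 with LPS, and 1 had a smaller LPS effect in DKO cells. With the floor at the 65th percentile 1 member was 2-fold lower without LPS, because Chac1 went to -0.28 against the higher floor, and 0 had a larger LPS effect. With shared probe sets left out 1 was lower without LPS and 0 with LPS, since Trib3 has only such probe sets. Equal medians, quantile normalization and the offset of 16 units each left 1 member with a larger LPS effect in DKO cells, Chac1, and under equal medians 1, Pdia4, had a smaller one. In these settings Slc7a11 stood at 0.91, 0.96 and 0.98. No called difference of a named member changed sign. No paired analysis was possible because the labels give no replicate numbers and each group has 1 array. The signal over background limits Vldlr and the untreated DKO values of Chac1 and Slc7a11, which lie close to the floor.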

Other observations

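Of 11 measured heat shock genes of the cytosol and mitochondria, 2 were 2-fold higher with LPS in each genotype, the inducible Hsp70 genes Hspa1b and Hspa1a. Of all genes 3.36% were in WT and 4.66% in DKO cells. By more than the probe set gap 5 of 11 were higher and 1 lower with LPS in WT cells, against 18.1% and 32.9% of all genes. In DKO against WT cells with LPS 4 were lower and 3 higher, against 27.7% and 19.7% of all genes. Hspa1b read 898 and 5031 units in WT and 513 and 7121 in DKO cells, log2 differences of 2.49 and 3.80, and its other 2 probe sets gave 3.11 and 3.06 in WT and 4.42 and 4.13 in DKO cells. Hspa1a read 354 and 710.2 units in WT and 360.4 and 1165 in DKO cells. Hspa1a and Hspa1b are near-identical copies whose probes may not separate them. The difference of LPS effects for Hspa1b was 1.31, past 2-fold like Chac1 and Slc7a11.

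Pdia5, another disulfide isomerase gene, read 90.8 and 184 units in WT cells without and with LPS, and 108 and 94.2 in DKO cells. Like Pdia4 it was higher with LPS in WT cells (1.02 on the log2 scale) and not in DKO cells (-0.20), a difference of -1.22. The difference was not tested.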
